A study of Mus musculus with 3 samples.

Results

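The expression of 10 genes that stop or slow the cell cycle was followed through detachment and re-attachment of cardiac myofibroblasts, the fibroblasts that contract and lay down matrix in a heart after injury. The genes were the cyclin-dependent kinase (CDK) inhibitors Cdkn1a, Cdkn1b, Cdkn1c, Cdkn2a, Cdkn2b and Cdkn2c and the p53 target genes Mdm2, Ccng1, Trp53inp1 and Gadd45a, with Cdkn1a belonging to both classes. They were chosen by name, with earlier results of these data known. A probe was assigned to a gene through the RefSeq transcript that the array design gives for it. All 10 were measured, among 15393 measured genes, by 14 probes on 23 spots. Each of these probes was well above background on all 3 arrays, with no flagged and no saturated spot, and 4 of the genes had 2 probes.

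The cells came from male C57BL/6J mice whose left anterior descending artery had been tied off for good, with the infarcted hearts taken 3 days later. The age of the mice is given as 8 weeks in one label and as 10 weeks at ligation in another. Cells that attached to plastic overnight were passed over a magnetic column, and those without CD45, a surface protein of leukocytes, were taken as myofibroblasts. Adherent cells were grown on plastic plates, non-adherent cells were moved from plates into suspension, and re-adherent cells were put back on plastic after suspension. No genotype, drug or siRNA differed between them. Each state had 1 array, and each RNA sample was mixed from several hearts, so no spread between animals could be measured. By the study's methods the 3 states were successive steps of a single culture, and cell number fell during suspension, so state, time in culture and the survival of a subset of the cells cannot be told apart. In bulk RNA of this kind, fewer expressing cells and less RNA per cell cannot be told apart either.

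CDKs drive cells from one phase of the division cycle to the next when bound to cyclins. The Cip/Kip inhibitors p21, p27 and p57, encoded by Cdkn1a, Cdkn1b and Cdkn1c, bind CDK2 complexes, while the INK4 inhibitors p16, p15 and p18, encoded by Cdkn2a, Cdkn2b and Cdkn2c, bind CDK4 and CDK6 and thereby keep the retinoblastoma protein active. Cdkn2a also encodes p19Arf, which holds back Mdm2, the ubiquitin ligase that degrades p53. The transcription factor p53 switches on Cdkn1a, Mdm2, Ccng1, Trp53inp1 and Gadd45a after DNA damage and other stress, and fibroblasts often raise p21 and p16 when they leave the cell cycle for good. Normal fibroblasts need attachment to pass through G1, the phase before DNA synthesis.

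RefSeq's promoter table for GRCm38.p6 held 11 windows for 8 of the 10 genes and none for Cdkn1c and Trp53inp1. The 250 bases upstream of each start were read, so sites farther upstream or downstream of a start were not searched. A p53 site consists of a pair of abutting half-sites of 10 bases. When both strands were searched for the full consensus with at most 1 mismatch, the site was found in 25 of 32851 windows (0.0761%), and those of Cdkn1a and Ccng1 were among them. The Cdkn1a window is chr17:29090729-29090978 on the plus strand and belongs to the upstream one of its pair of listed starts. Its site begins at position -51 from the start, and a lone half-site begins at -73. The Ccng1 window is chr11:40755287-40755536 on the minus strand, with the site beginning at -195. Capitals mark p53 sites and half-sites.
Cdkn1a: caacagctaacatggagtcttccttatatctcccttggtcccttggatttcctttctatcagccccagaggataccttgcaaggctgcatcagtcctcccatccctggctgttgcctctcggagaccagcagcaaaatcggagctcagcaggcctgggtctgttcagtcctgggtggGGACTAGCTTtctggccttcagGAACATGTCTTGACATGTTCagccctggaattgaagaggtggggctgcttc
Ccng1: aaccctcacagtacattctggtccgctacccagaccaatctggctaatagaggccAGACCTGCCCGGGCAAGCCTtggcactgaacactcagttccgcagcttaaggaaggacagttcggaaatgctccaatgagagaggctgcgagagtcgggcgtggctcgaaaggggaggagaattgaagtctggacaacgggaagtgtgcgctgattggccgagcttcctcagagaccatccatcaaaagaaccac

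Single p53 half-sites without a mismatch were more common, being present in 7.13% of all windows, and 1 each was found in the windows of Mdm2 (chr10:117710759-117711008, minus strand, from -186) and Gadd45a (chr6:67037408-67037657, minus strand, from -40). The Gadd45a window also held the octamer ATTTGCAT 2 times, once on each strand, the first from -97, and 1.6% of all windows hold that motif. Both sequences are shown because Mdm2 is the feedback target of p53 and Gadd45a had the largest difference of the 10 genes in suspension. Capitals mark half-sites in both windows and the octamers in that of Gadd45a.
Mdm2: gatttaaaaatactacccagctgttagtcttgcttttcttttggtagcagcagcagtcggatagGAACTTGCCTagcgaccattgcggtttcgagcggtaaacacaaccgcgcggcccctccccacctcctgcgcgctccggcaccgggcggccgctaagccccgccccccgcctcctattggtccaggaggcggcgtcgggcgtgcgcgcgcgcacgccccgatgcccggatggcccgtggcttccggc
Gadd45a: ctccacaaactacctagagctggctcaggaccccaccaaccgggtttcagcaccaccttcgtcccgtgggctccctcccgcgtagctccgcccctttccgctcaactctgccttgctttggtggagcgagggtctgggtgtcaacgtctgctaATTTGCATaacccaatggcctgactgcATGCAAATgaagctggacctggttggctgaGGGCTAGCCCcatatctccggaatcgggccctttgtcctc

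Among the other motifs searched, the E2F site TTTNGCGC was found in 1 of the 2 Cdkn2a windows (1.13% of all windows), and the cyclic AMP element TGACGTCA in that of Cdkn2b (1.55%). The CCAAT box CCAAT was found in 4 of the 11 windows and 33.8% of all windows, and the GC box GGGCGG in 6 of 11 and 32.7%. The AP-1 site TGANTCA, the E-box CACGTG and the TEAD site GGAATG were in 0 of the 11 windows and in 6.75%, 6.02% and 12.6% of all windows. A match describes letters in a window and not a bound factor.

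Levels below are the processed signal of the scanner software in intensity units. Differences are on the log2 scale after each array was divided by its own 75th percentile, which was 651, 697 and 541 units for adherent, non-adherent and re-adherent cells. Each difference carries the software's error, which had a median of 0.20 and covers technical error within arrays only. Spots of the same probe repeated on an array gave a smaller error, with a median SD of 0.06 to 0.08. The share of non-control spots that stood well above background was between 53.9% and 59.9% per array. With 1 array per state no test was possible, and a gene is called higher or lower when it differed by over 2-fold.

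The first comparison is of the cells that had been returned to plastic. Cdkn2a and Cdkn1a exceeded both other states by over 2-fold in re-adherent cells, and Cdkn1c was over 2-fold below both. Of 14458 genes measured in both comparisons, 2.16% were over 2-fold higher in re-adherent cells than in both other states and 2.32% over 2-fold lower. Against adherent cells alone, 2 of the 10 genes were over 2-fold higher in re-adherent cells, where 4.56% of all genes were, and 1 was lower, where 4.66% of all genes were. The 2 higher genes were Cdkn1a and Cdkn2a, and the lower gene was Cdkn1c. These calls depend on the processing: the count of 2 was 1 with no scaling, quantile normalisation or the authors' values and 0 with the spike-in scaling, and Cdkn1c was under 2-fold with normexp background correction. The median difference of the 10 genes was 0.42, beside 0.06 for all genes.

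**Figure D1:**
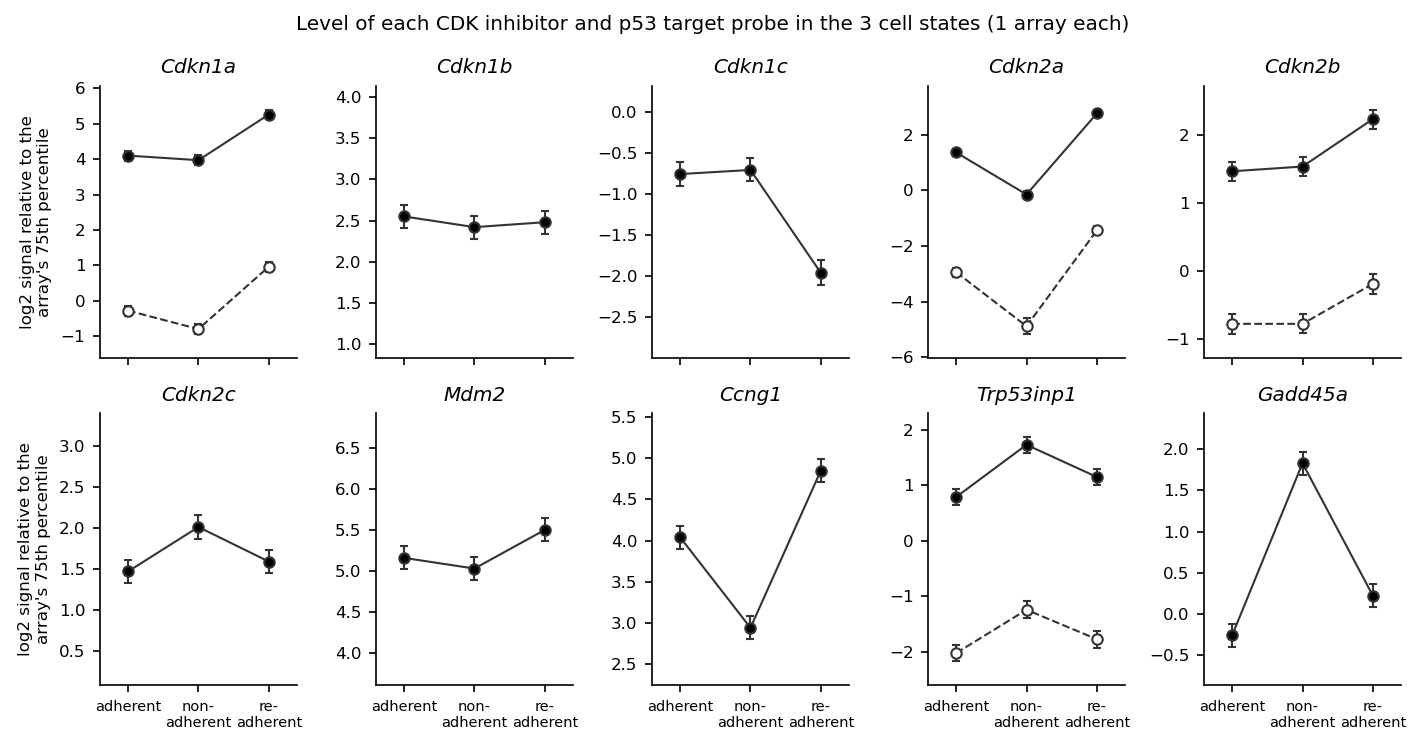
Log2 signal relative to the array's 75th percentile (vertical axis, range set per gene) for adherent, non-adherent and re-adherent cells; filled points show the brighter probe, open points a second probe, and bars the software's error. Cdkn1a, Cdkn2a, Cdkn2b and Ccng1 were highest on the re-adherent array by both probes where there were 2, whereas Gadd45a and Trp53inp1 were highest in suspension.

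Cdkn1a, which encodes p21, gave a mean signal of 11173 units in adherent, 10945 in non-adherent and 20730 in re-adherent cells. Adherent and non-adherent cells were at nearly the same level, and the re-adherent array stood above both. The probe is printed on 10 spots. They ranged from 10544 to 11628 units for adherent cells (median 11178), from 9831 to 11606 for non-adherent cells (median 10985) and from 19779 to 22211 for re-adherent cells (median 20709). The spots of the re-adherent array did not overlap those of the other arrays, while those of the adherent and non-adherent arrays did.

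After scaling, re-adherent cells were 2.23-fold above adherent cells in Cdkn1a (log2 difference 1.16, software error 0.20), and the difference was between 1.12 and 1.23 over the 10 spots (SD 0.032). They were 2.44-fold above non-adherent cells (1.29), with 1.21 to 1.43 over the spots. Non-adherent and adherent cells differed by -0.13, which is within the software's error, although all 10 spots were lower (from -0.26 to -0.05, SD 0.074). These spots share 1 RNA sample per state and measure printing and hybridisation only.

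**Figure D2:**
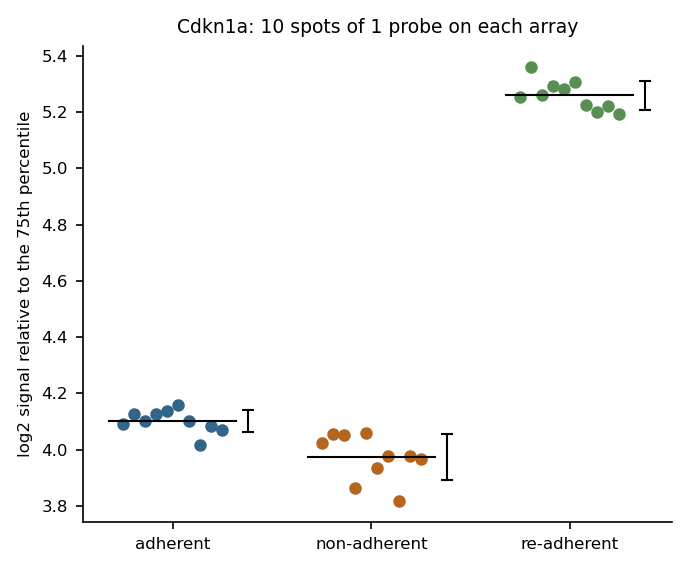
Log2 signal of the 10 Cdkn1a spots on each array relative to the array's 75th percentile (vertical axis, not starting at 0); horizontal lines are means and the bars beside them the SD over spots. The re-adherent spots, mean 5.26, lie apart from the adherent and non-adherent spots, means 4.10 and 3.97.

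A second Cdkn1a probe, assigned to the transcript NM_001111099 and not to NM_007669, was dimmer and showed the same order of states. It read 535, 401 and 1053 units in adherent, non-adherent and re-adherent cells. Re-adherent cells exceeded adherent cells by 1.24 by this probe and by 1.16 by the first, a gap of 0.09 between probes. In suspension the probes differed more, at -0.51 and -0.13. Whether the difference from adherent cells passed 2-fold depended on the scaling. It stayed under 2-fold in 4 of the 6 scalings, at 0.68 with the spike-in probes, 0.89 with no scaling, 0.96 with quantile normalisation and 0.98 with the authors' values, and it was 1.24 with median scaling. Against non-adherent cells it was under 2-fold in 1 of the 6, at 0.92 with no scaling.

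Cdkn1b, which encodes p27, the inhibitor that rises when cells are starved of growth factors, read 3805 units in adherent, 3732 in non-adherent and 3030 in re-adherent cells. After scaling the states differed by -0.13 in suspension against adherent cells, 0.06 on re-attachment and -0.06 over the whole cycle. None of these exceeded the software's error of 0.20, and those against the re-adherent array changed sign with the scaling.

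Cdkn1c encodes p57, an imprinted inhibitor expressed mainly from the maternal copy. Its signal was 385 units in adherent, 426 in non-adherent and 139 in re-adherent cells. The first states differed by 0.05, within the error of 0.21, and the re-adherent array stood below both. It was 2.30-fold below the adherent array (-1.20) and 2.38-fold below the non-adherent array (-1.25). Over the 6 scalings the difference from adherent cells ran from -1.68 to -1.12. With normexp background correction both differences were under 2-fold, at -0.92 against adherent and -0.97 against non-adherent cells. Most endothelial markers were also lowest in re-adherent cells: 9 of 10 were over 2-fold lower than in non-adherent cells and 7 of 10 lower than in adherent cells. Kdr, named after its values were seen, went the other way, at 0.74 against non-adherent and 0.39 against adherent cells. It was bright, with 9446, 7939 and 10320 units in adherent, non-adherent and re-adherent cells. Vwf was level with adherent cells (-0.08). The list's summed scaled signal was 23.8, 38.9 and 22.3 in adherent, non-adherent and re-adherent cells. In re-adherent cells Kdr was by far the brightest of the list, so the sum there mainly follows Kdr and not the lower markers. Cldn5, Emcn and Tie1 did not stand well above background in re-adherent cells. The part of endothelial cells in the Cdkn1c difference was not tested.

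The Cip/Kip genes thus went 3 ways on re-attachment, with Cdkn1a higher, Cdkn1c lower and Cdkn1b within error of both other arrays. The INK4 genes Cdkn2a and Cdkn2b were both highest in re-adherent cells, by different amounts, and Cdkn2c was highest in suspension.

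Cdkn2a moved most among the inhibitors. Its brighter probe read 1668 units in adherent cells, 629 in non-adherent cells and 3677 in re-adherent cells. Suspended cells were 2.84-fold below adherent cells (-1.51), and re-adherent cells were 7.53-fold above suspended cells (2.91). They also passed the starting level, at 2.65-fold above adherent cells (1.41). This last difference ran from 0.93 with the spike-in scaling, just under 2-fold, to 1.49 over the 6 scalings. A second probe read 85.1, 23.6 and 199 units, with differences of -1.95 (error 0.32), 3.44 and 1.49. Both probes are assigned to the transcript NM_009877. The gene's transcripts for p16 and p19Arf share exons, and since the position of the probes within the transcript was not used here, the signals of the 2 products cannot be told apart.

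Cdkn2b, the neighbour of Cdkn2a that encodes p15, is known as a target of TGF-beta. It read 1800 units in adherent, 2026 in non-adherent and 2550 in re-adherent cells. Adherent and non-adherent cells did not differ beyond the error (0.07). Re-adherent cells were 1.70-fold above adherent cells (0.77) and 1.62-fold above non-adherent cells (0.70), under the 2-fold mark. A second probe gave 379, 407 and 474 units and differences of 0.59 and 0.58. Against adherent cells the difference remained above 0 in each scaling, from 0.30 to 0.86.

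Cdkn2c, which encodes p18, read 1800 units in adherent, 2805 in non-adherent and 1626 in re-adherent cells. It was 1.46-fold higher in suspension (0.54) and 1.34-fold lower on re-attachment (-0.42). Re-adherent and adherent cells differed by 0.12, within the error, and the sign of that difference turned with the scaling.

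Suspended and adherent cells were compared next. Of the 10 genes, 1 was over 2-fold higher in non-adherent than in adherent cells, where 17.3% of all 15226 genes were, and 2 were lower, where 14.7% of all genes were. The higher gene was Gadd45a, and the lower genes were Cdkn2a and Ccng1. These counts are near the share of all genes, as a large part of the measured genes differed between these states in either direction. On re-attachment 3 were over 2-fold higher than in suspension (15.2% of 15120 genes), namely Cdkn1a, Cdkn2a and Ccng1, and 2 were lower (16.5% of all genes), namely Cdkn1c and Gadd45a. The comparisons share arrays, so the reversal of a gene from one to the next is not a separate observation. The median of the 10 genes was -0.04 in suspension and 0.27 on re-attachment, beside -0.07 and 0.07 for all genes.

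**Figure D3:**
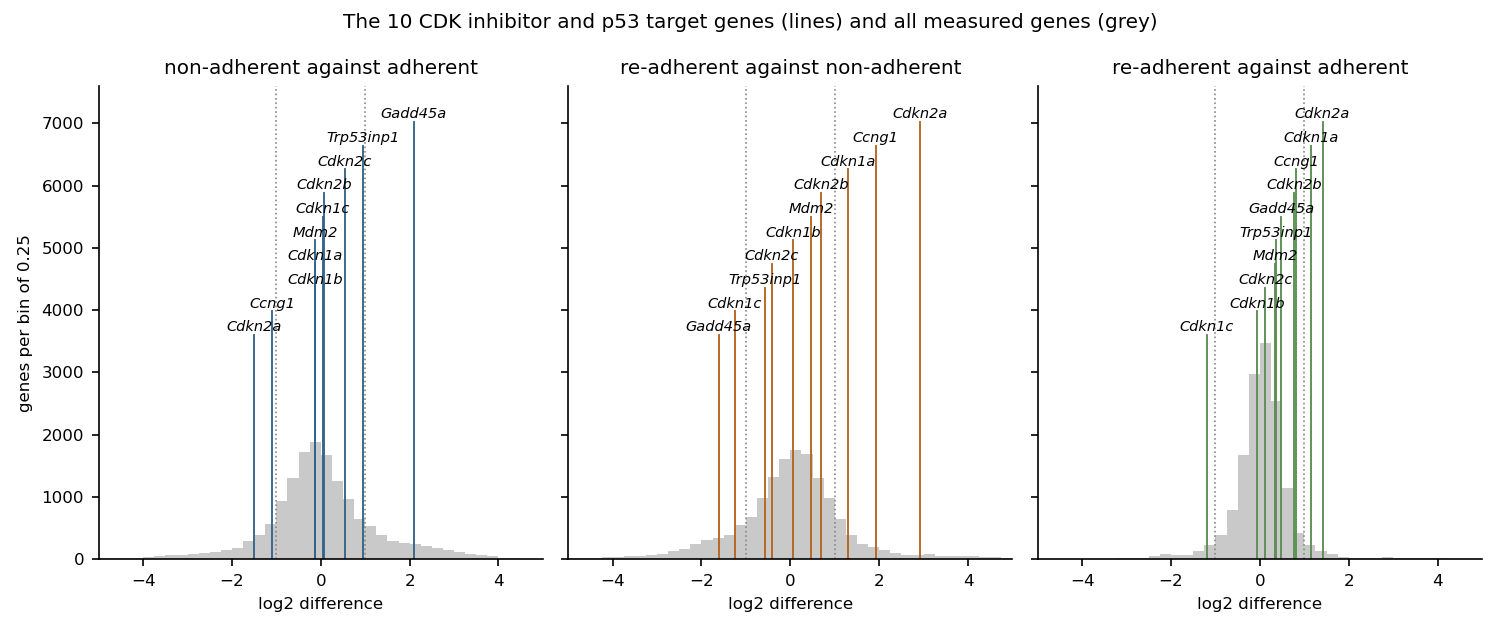
Histograms of the log2 difference of all measured genes (grey, bins of 0.25; values beyond the axis are not drawn) in the 3 comparisons, with a labelled line for each of the 10 genes and dotted lines at 2-fold. In re-adherent against adherent cells the grey distribution is narrow, and Cdkn2a at 1.41, Cdkn1a at 1.16 and Cdkn1c at -1.20 lie in its tails.

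Mdm2, the ubiquitin ligase that p53 induces as its own brake, was among the bright signals and changed little. It read 23229 units in adherent, 22773 in non-adherent and 24495 in re-adherent cells. Suspended and adherent cells differed by -0.13, within the error. Re-adherent cells were 0.47 above non-adherent and 0.34 above adherent cells, both over the error of 0.20 but only the first over 2 errors. The difference from adherent cells ran from -0.13 to 0.43 over the scalings and so has no settled direction.

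Ccng1 encodes cyclin G1, a p53-induced partner of protein phosphatase 2A that acts on Mdm2. Its signal was 10712 units in adherent, 5338 in non-adherent and 15643 in re-adherent cells. Suspended cells were lowest, 2.15-fold below adherent cells (-1.10). Re-adherent cells were 3.77-fold above suspended cells (1.92) and 1.76-fold above adherent cells (0.81, from 0.34 to 0.90 over the scalings). Ccng1 and Cdkn1a, the genes whose windows hold the full p53 site shown above, both gave their highest value on the re-adherent array, 0.81 and 1.16 above adherent cells, of which only the Cdkn1a value is over 2-fold. In suspension Ccng1 was over 2-fold lower, while Cdkn1a was within its error of adherent cells.

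Trp53inp1, a stress-induced partner of p53 that also takes part in autophagy, had the opposite order. It read 1126 units in adherent, 2305 in non-adherent and 1204 in re-adherent cells. It was 1.91-fold higher in suspension (0.94) and 1.49-fold lower after re-attachment (-0.57). A second probe read 161, 294 and 159 units, with differences of 0.78 and -0.52. Re-adherent cells differed from adherent cells by 0.36, which turned sign with the scaling (from -0.11 to 0.45).

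Gadd45a encodes a stress protein that binds PCNA and p21. It read 544 units in adherent, 2479 in non-adherent and 631 in re-adherent cells. Suspended cells stood above both attached states, 4.26-fold over adherent cells (2.09), and re-adherent cells were 3.05-fold below suspended cells (-1.61). Re-adherent cells were 1.39-fold above adherent cells (0.48), with a range of 0.01 to 0.57 over the scalings.

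Other cell types moved with these differences. Macrophage markers had a summed scaled signal of 255 in adherent, 1608 in non-adherent and 526 in re-adherent cells, although the cells were depleted of CD45. Of 16 measured macrophage markers 15 were over 2-fold higher in suspension than in adherent cells, and 14 were lower again on re-attachment. Against adherent cells, 7 of 15 were over 2-fold higher in re-adherent cells (4 to 8 over the scalings). The largest differences in suspension were those of Mrc1 (3.58), C1qb (3.44), C1qa (3.32) and C1qc (3.30). Cx3cr1 and Itgam, named after their values were seen, went other ways. Cx3cr1 read 416, 2837 and 8492 units and in re-adherent cells was 1.95 above non-adherent and 4.62 above adherent cells. Itgam was at -0.84 in suspension and 0.68 on re-attachment. Ptprc, which encodes CD45 and was named for the sort, read 355, 2441 and 532 units. Cd163 was too dim to stand well above background in any state, as was Ccr2 in adherent and re-adherent cells. Endothelial markers were over 2-fold higher in suspension in 7 of 10 cases, with Cldn5 (3.77), Tie1 (3.18), Cdh5 (2.94) and Vwf (2.49) foremost. The part of these cells in the higher Gadd45a, Trp53inp1 and Cdkn2c of suspension, and in the higher Cdkn1a and Cdkn2a of re-adherent cells, was not tested. Cardiomyocyte markers had a summed scaled signal of 1.34, 2.14 and 3.50 in adherent, non-adherent and re-adherent cells, with between 5 and 8 of 9 well above background. In re-adherent against adherent cells 2 of 6 were over 2-fold higher and 1 lower. Tnnt2, named after its values were seen, read 593, 955 and 1646 units and was 1.74 higher in re-adherent than in adherent cells. It was by far the brightest of the list, followed by Nppa with 97.3, 207 and 93.4 units, so the summed signal mainly follows Tnnt2. Actc1, Myl7, Ryr2 and Tnni3 did not stand well above background in re-adherent cells. In suspension 3 of 8 were over 2-fold higher, and the largest differences among those well above background in both states were those of Myl2 (1.12), Nppa (0.99), Myh6 (0.96) and Actc1 (0.75).

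Markers of the labelled cell type were present in each state. All 13 myofibroblast and fibroblast markers were well above background on each array, with a summed scaled signal of 2714, 1016 and 2620. In suspension 6 were over 2-fold lower than in adherent cells and 1 higher, and in re-adherent against adherent cells 0 were higher and 1 lower. The largest differences in suspension were those of the contractile genes Cnn1 (-8.80), Acta2 (-6.64) and Tagln (-5.98) and of the surface protein Thy1 (-3.50). The gene that was over 2-fold higher in suspension was the matrix proteoglycan Dcn (1.69), also the gene that was lower in re-adherent cells (-1.51), which was named after its values were seen.

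The remaining p53 targets were read from a list of 34 further genes. In re-adherent against adherent cells 3 were over 2-fold higher and 0 lower, where 4.56% and 4.66% of all genes were. Of the 34 genes 28 were above 0, with a median of 0.37 beside 0.06 for all genes. Under the spike-in scaling, in which the median of all genes was itself -0.41, 15 of 34 were above 0, and the list's median stayed 0.31 to 0.32 above that of all genes in each scaling. The 3 genes were Gdf15 (1.26), a secreted stress factor, Pmaip1 (1.14), which encodes the death factor Noxa, and Perp (1.01), a desmosomal protein; they were picked after their values were seen. On re-attachment 11 of 34 were over 2-fold higher than in suspension and 3 lower, where 15.2% and 16.5% of all genes were. In suspension 4 were over 2-fold higher and 5 lower than in adherent cells, which is no larger a share than the 17.3% and close to the 14.7% of all genes. Over the scalings the count of 3 ran from 0 to 3, that of 11 from 7 to 11 and that of 5 from 3 to 10.

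The 4 listed p53 targets with the largest differences in suspension are given as single values. Sesn1, which encodes the stress protein sestrin, read 1209 units in adherent, 9253 in non-adherent and 1357 in re-adherent cells, a difference of 2.84 in suspension. Dram1, a lysosomal protein of autophagy, was 1.38 higher. Tnfrsf10b, the death receptor for TRAIL, read 4182, 1165 and 5297 units and was at -1.94 in suspension and 2.55 on re-attachment. Aen, a nuclease of apoptosis, read 40076, 13631 and 40179 units (-1.65 and 1.92).

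Of the 25 genes whose windows hold the full p53 site, 9 were measured, 7 of them outside the 10 genes described here. All 7 were above 0 in re-adherent against adherent cells, with a median of 0.39 beside 0.06 for all genes. Of these, 2 were over 2-fold higher, where 4.56% of all genes were. They were Bank1 (1.92) and Eprn (1.23), named after their values were seen. In suspension Bank1 and Eprn went opposite ways, at 2.86 and -4.13. With the spike-in scaling 3 of 7 were above 0, with a median of -0.09 beside -0.41 for all genes. In suspension 2 of the 7 were over 2-fold higher and 2 lower than in adherent cells, where 17.3% and 14.7% of all genes were, with a median of -0.04. One of the 7, Rps27l, is also on the list of p53 targets, with differences of -0.69 in suspension, 1.19 on re-attachment and 0.50 in re-adherent against adherent cells.

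p53 itself and its regulators moved less. Of 14 such genes 0 passed 2-fold in suspension or in re-adherent against adherent cells. On re-attachment 1 was over 2-fold higher (0 to 1 over the scalings), where 15.2% of all genes were. In some scalings 2 of the 14 were over 2-fold lower in re-adherent cells. The gene that was higher was Trp53, with 469, 318 and 526 units in adherent, non-adherent and re-adherent cells and differences of -0.66, 1.09 and 0.43. The difference of 1.09 ran from 0.73 to 1.11 over the scalings. Mdm4, the partner of Mdm2 that silences p53, read 307, 390 and 160 units. It was 0.25 higher in suspension, within 2 errors, and lower on the re-adherent array than on the adherent array by a difference of -0.68. Among the kinases that act on p53, Chek2 was at 0.79 and Hipk2 at 0.75 in suspension, and Atr at -0.57.

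Close relatives of the 10 genes were read as well. Gadd45b and Gadd45g, which share the fold and the stress response of Gadd45a, were lower in suspension where Gadd45a was higher. Gadd45b read 3576, 1187 and 2590 units (-1.69 in suspension) and Gadd45g 82058, 6912 and 49138 units (-3.67). Both were higher on re-attachment, by 1.49 and 3.19. Cdkn2d, the INK4 gene for p19, read 6675, 7465 and 6070 units and differed by at most 0.13 between states. Ccng2, the relative of Ccng1, was at 0.62 in suspension and -1.08 on re-attachment, against -1.10 and 1.92 for Ccng1. Trp53inp2 was at -0.12 in suspension, against 0.94 for Trp53inp1, and at 0.62 on re-attachment.

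**Figure D4:**
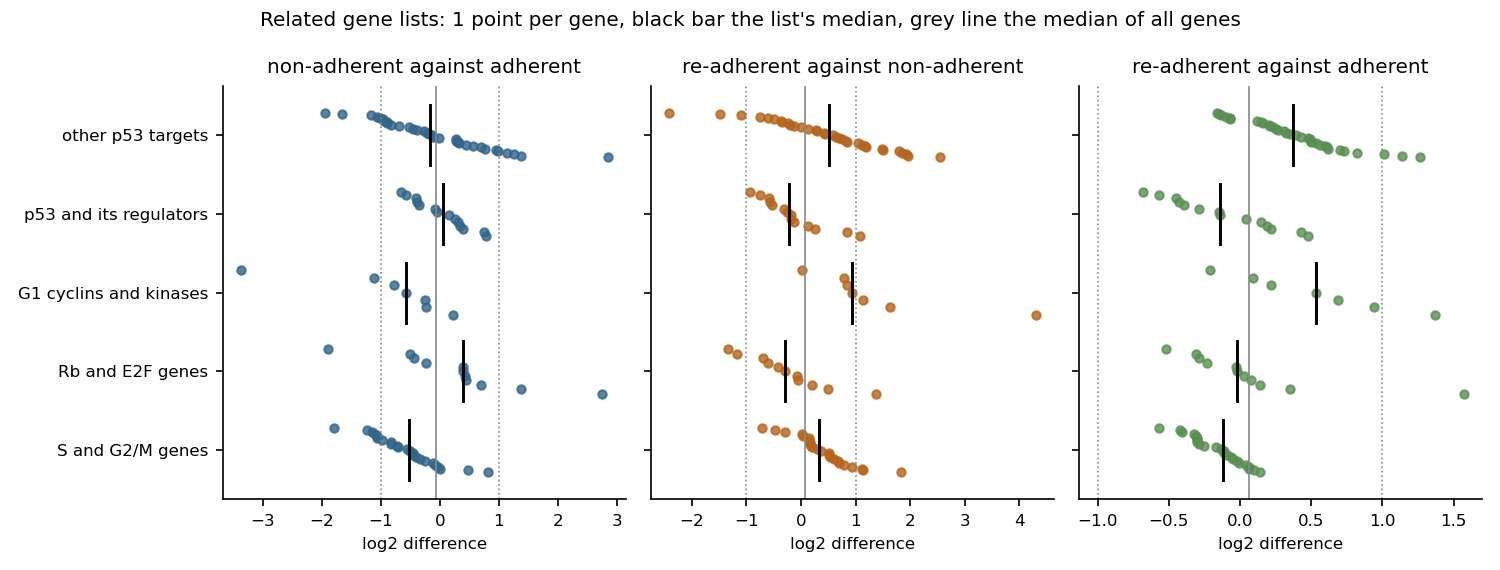
Log2 differences of the genes of 5 related lists in the 3 comparisons (1 point per gene; horizontal scales differ between panels), with the list's median as a black bar, the median of all genes as a grey line and dotted lines at 2-fold. Most of the other p53 targets lie right of the grey line in re-adherent against adherent cells (median 0.37), and most S and G2/M genes lie left of it in suspension (median -0.53).

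The partners that these inhibitors act on are the G1 cyclins and their kinases. Of 7 measured G1 cyclins and kinases, 2 were over 2-fold lower in suspension and 0 higher, where 14.7% and 17.3% of all genes were. On re-attachment 3 were over 2-fold higher, where 15.2% of all genes were. The list's median was -0.57 in suspension and 0.94 on re-attachment. Ccnd2, a D-type cyclin that activates CDK4 and CDK6, read 19374 units in adherent, 2021 in non-adherent and 30963 in re-adherent cells, differences of -3.36 and 4.30. Ccnd3 followed with -1.12 and 1.64, Ccne1 with -0.77 and 0.85, and Cdk4 with -0.57 and 0.79. Only 1 of them was over 2-fold higher in re-adherent than in adherent cells, Ccnd1 (1.37), which was named after its value was seen and which read 12543, 15745 and 26956 units. So Ccnd1 and the inhibitors Cdkn1a and Cdkn2a were all over 2-fold higher in re-adherent than in adherent cells, and none of the 3 reached 2-fold with the spike-in scaling.

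Downstream of these kinases, 24 genes of DNA synthesis and mitosis were used as a readout of division. In suspension 6 were over 2-fold lower (3 to 9 over the scalings) and 0 higher (0 to 1), where 14.7% and 17.3% of all genes were. The median was -0.53, and 3 of the 24 were above 0. Among these was Pcna, named after its values were seen, at 0.81 (0.62 to 1.08 over the scalings). It read 22988, 43258 and 20452 units in adherent, non-adherent and re-adherent cells. Cdc20, an activator of the anaphase ligase, was at -1.79, the nucleotide reductase Rrm2 at -1.24, the mitotic kinases Aurka and Cdk1 at -1.15 and -1.09. On re-attachment 3 were over 2-fold higher, where 15.2% of all genes were. In re-adherent against adherent cells 0 passed 2-fold in either direction, with a median of -0.12. Relative to all genes that median lay between -0.30 and -0.19 over the scalings.

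The Rb and E2F genes, which the INK4 inhibitors control through CDK4 and CDK6, had 2 of 11 over 2-fold higher and 1 lower in suspension. The shares of all genes were 17.3% and 14.7%, so these counts are near them. E2f2 was at 2.75, Rbl2, which encodes the pocket protein p130 of resting cells, at 1.37, Rb1 at 0.69, and E2f7, a repressor induced in S phase, at -1.89. E2f2 alone of them passed 2-fold in re-adherent against adherent cells (1.57).

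Genes that act on Cdkn1b and on the INK4 genes were also read. Of the p27 turnover and FoxO genes, 5 of 7 were measured in suspension against adherent cells. Cks1b, a cofactor of the ligase that degrades p27, was at -1.34 in suspension and Foxo1, a transcription factor that can induce Cdkn1b, at 1.03, while Cdkn1b itself stayed within its error. Foxo3 and Cul1 were at 0.26 and -0.25. Of 8 Polycomb genes, whose complexes keep the Cdkn2a locus silent, 0 passed 2-fold in any comparison (1 in suspension with the spike-in scaling). Ezh2 was at -0.87, Pcgf2 at -0.80, Bmi1 at -0.50 and Eed at -0.40 in suspension, the state in which Cdkn2a was lowest. In re-adherent against adherent cells the Polycomb list's median was -0.21. The part of the Polycomb genes in the Cdkn2a values, and of Cks1b and Foxo1 in those of Cdkn1b, was not tested.

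**Figure D5:**
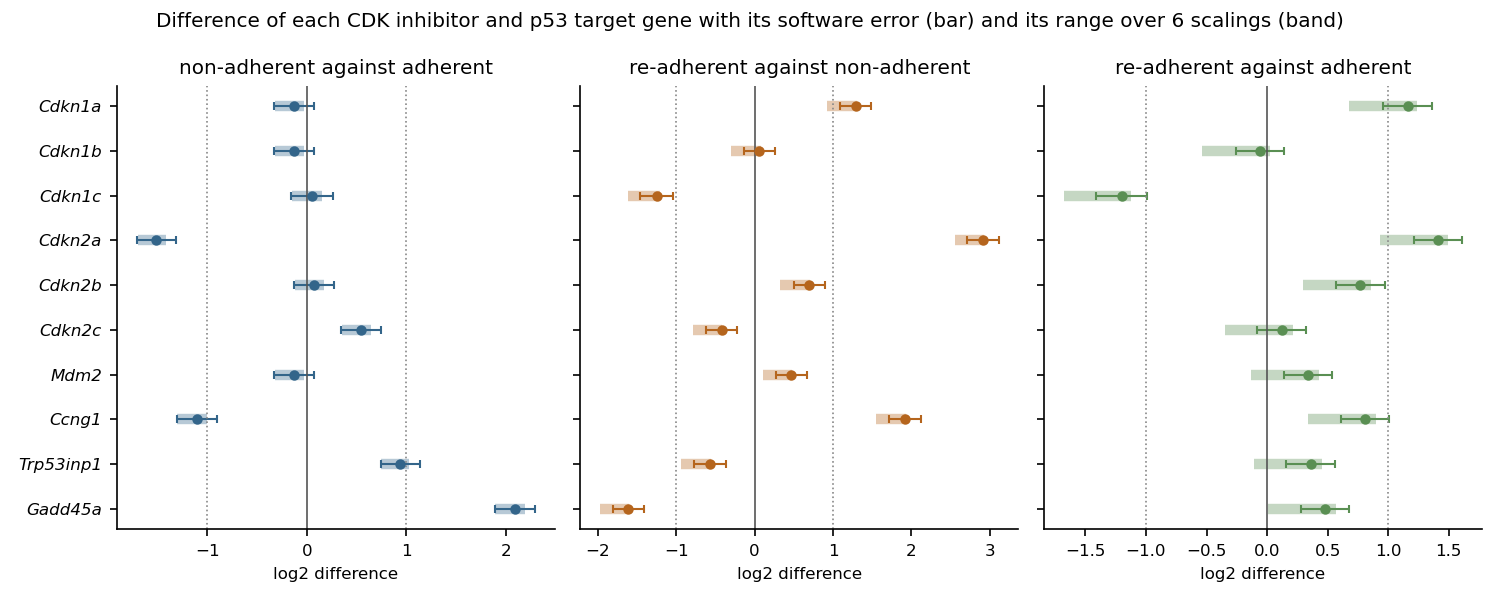
Log2 difference of each of the 10 genes in the 3 comparisons (points; bars are the software's error) and its range over 6 ways of scaling the arrays (bands), with dotted lines at 2-fold; horizontal scales differ between panels. Cdkn1a and Cdkn2a stay above 0 and Cdkn1c below 0 in re-adherent against adherent cells in each scaling, while the bands of Cdkn1b, Cdkn2c, Mdm2 and Trp53inp1 cross 0.

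Measured against technical error, 5 of the 10 genes differed by over 2 errors between suspension and adherent cells, 9 between re-adherent cells and suspension, and 6 between re-adherent and adherent cells. Over the scalings the sign turned for 2, 1 and 4 genes in these comparisons. Spots near those of the 10 genes on the slide had median differences between -0.35 and 0.04 in suspension, between -0.14 and 0.33 on re-attachment and between -0.11 and 0.15 in re-adherent against adherent cells.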

How the data were processed

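Processed intensity values of 1-colour Agilent mouse arrays were deposited by the authors for 3 samples, as written by Agilent Feature Extraction 10.10.1.1 (background-subtracted signal on a linear scale, with an error and flags per spot). The deposited matrix of the series holds the same intensity times 1 constant per array (1.5209, 1.5218 and 1.6187) and served as an alternative. The methods name no normalisation. Here flagged spots were left out, the 75th percentile of an array's non-control spots was subtracted on the log2 scale, and spots of a probe were averaged (Python 3.11.15, pandas 2.3.3). Of 37874 transcript names, 21462 matched RefSeq of GRCm38.p6, giving 27229 of 55665 probes 1 symbol. The array design uses an older assembly, so no probe coordinates are given.

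A gene entered a comparison when its probe with the highest mean was well above background on at least 1 of the 2 arrays; 4046 of 15393 genes had several probes. With 1 array per state no p-value was computed, and the number of arrays limits the precision. The 10 genes and the gene lists were chosen with earlier results of these data known. All probes of the 10 genes are reported; from each other list, counts over 2-fold and up to 4 genes with the largest difference between non-adherent and adherent cells among those well above background on both arrays, plus Trp53, Mdm4, Cdkn2d, Gadd45b and Gadd45g. Names outside this rule are marked in the text, except markers too dim to measure. The calling step was tested on simulated data. Alternatives were 5 other scalings, normexp background correction (limma 3.58.1 in R 4.3.3) on the median signal, other filters, flags kept, probe means, neighbouring spots subtracted and thresholds of 1.5 and 4-fold.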

Additional observations from a re-analysis of the deposited data

How the results depend on the processing

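None of the 10 genes that passed 2-fold in a comparison turned sign under any alternative. Of the recomputed counts of genes over 2-fold, 68 were within 1.5 times of those reported and 16 were not. In non-adherent against adherent cells the count higher went from 1 to 2 with median scaling, with no scaling, with the authors' values and at 1.5-fold, and the count lower from 2 to 0 at 4-fold. In re-adherent against non-adherent cells the count higher went from 3 to 1 at 4-fold, and the count lower from 2 to 1 (without Cdkn1c) with normexp, which was added after seeing the data, and to 0 at 4-fold. In re-adherent against adherent cells the count higher went from 2 to 1 with no scaling, with quantile normalisation and with the authors' values, to 0 with spike-in scaling and at 4-fold, and to 4 at 1.5-fold, and the count lower (Cdkn1c) from 1 to 0 with normexp and at 4-fold. The scaling shifts every gene: the median of all genes in re-adherent against adherent cells was 0.06 as reported, -0.41 with spike-in scaling, -0.20 with no scaling and -0.11 with the authors' values, and which scaling is nearest to the RNA content per cell was not tested. The planned normexp on the mean signal was not run, and the median signal took its place. Leaving out a replicate was not possible with 1 array per state. No paired analysis was possible because each state had 1 array.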
